A study of Mus musculus with 22 samples.

Results

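The 7 genes described here encode the enzymes that attach ATG12 to ATG5 and LC3 to membrane lipid in autophagy, the pathway by which a cell encloses cytoplasm in a double membrane and delivers it to the lysosome. They are Atg5, Atg12, Atg16l1, Atg16l2, Atg7, Atg10 and Atg3, and they were taken by symbol from a table of 15725 genes, in all 22 libraries and 5 groups. Each of the 7 passed the filter on low values (at least 1 FPKM in at least 3 libraries), as did 11070 genes in all.

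The libraries came from primary microglia, the resident macrophages of the brain, shaken off mixed glial cultures of newborn C57BL/6 mouse cortex. Every culture received lipopolysaccharide (LPS) at 100 ng/ml for 24 h, and no culture without LPS was analysed here. Groups comprised cultures with LPS only (LPS, n = 3), LPS with 10 nM bafilomycin A1 (LPS+Baf A1, n = 5), LPS with 50 nM CLA (LPS+CLA, n = 6), and LPS after 48 h of transfection with 50 nM of an siRNA against Atg5 (LPS+siAtg5, n = 5). The comparator of the siRNA was LPS+dNC (n = 3), also LPS after 48 h of transfection, for which no siRNA dose was found in the labels. Neither CLA nor dNC is written out in the labels. Bafilomycin A1 inhibits the vacuolar proton pump and so stops lysosomal degradation of autophagosomes. The study asked how these treatments changed gene expression in LPS-treated microglia.

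Microglia use this pathway to degrade their own components, and a related use of the same enzymes attaches LC3 to phagosomes after engulfment. ATG7 is the E1-like enzyme that activates both ATG12 and LC3. ATG10 is the E2-like enzyme that hands ATG12 to ATG5, and ATG3 is the E2-like enzyme that hands LC3 to phosphatidylethanolamine. ATG12-ATG5 joined to ATG16L1 works as the E3-like complex that places LC3 on the membrane, and ATG16L2 is a paralogue of ATG16L1. In autophagy, bafilomycin A1 acts after this step, whereas loss of ATG5 removes the step itself.

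In GENCODE vM21, an annotation of GRCm38, Atg5 (ENSMUSG00000038160.7) lies on chromosome 10 from 44268358 to 44364291, and Atg3 (ENSMUSG00000022663.3) on chromosome 16 from 45158785 to 45188538, both on the plus strand. Atg7 lies on chromosome 6 from 114643097 to 114860614 and Atg16l1 on chromosome 1 from 87755870 to 87792428, also on the plus strand. On the minus strand, Atg10 lies on chromosome 13 from 90935356 to 91223968, Atg12 on chromosome 18 from 46730144 to 46741580, and Atg16l2 on chromosome 7 from 101263034 to 101302251. The labels name no build for the deposited values. In exons, the only overlap with another gene was 25 bases that Atg16l2 shares with Fchsd2 on the opposite strand, or 0.295% of its exonic bases. Of the 31-base words in the transcripts, between 0.0425% (Atg5) and 2.33% (Atg16l1) also occurred in another gene.

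The sequences before the starts of Atg5 and Atg3 are shown because these 2 genes changed in opposite directions with both compounds while sharing the word CACGTG, the core of the site read by the lysosomal and autophagy regulators TFEB and TFE3. They are RefSeq promoters on GRCm38.p6, plus strand, 5′ to 3′. That of Atg5 ends at the RefSeq start, 19 bases before the GENCODE start given above, and that of Atg3 is cut at the GENCODE start, 44 bases before the RefSeq start. Capitals mark CACGTG. The first runs 250 bases, at chr10:44268089-44268338, and the second 206 bases, at chr16:45158579-45158784.

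Atg5: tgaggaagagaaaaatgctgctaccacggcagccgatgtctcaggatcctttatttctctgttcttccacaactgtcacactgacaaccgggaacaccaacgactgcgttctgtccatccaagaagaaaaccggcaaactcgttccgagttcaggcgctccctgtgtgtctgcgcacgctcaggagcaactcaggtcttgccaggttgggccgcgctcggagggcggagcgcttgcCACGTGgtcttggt

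Atg3: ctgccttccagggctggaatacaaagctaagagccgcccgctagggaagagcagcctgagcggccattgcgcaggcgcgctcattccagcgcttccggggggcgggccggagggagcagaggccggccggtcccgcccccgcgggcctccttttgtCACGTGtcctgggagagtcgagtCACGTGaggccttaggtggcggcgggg

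CACGTG reads the same on both strands. Its first base stood 14 bases before the RefSeq start in Atg5. In Atg3 it stood 94 and 71 bases before the RefSeq start, which is 50 and 27 bases before the GENCODE start where the printed sequence ends. In Atg7 it stood 132 bases before a RefSeq start that lies 27999 bases inside the GENCODE gene. Neither Atg10 nor Atg16l2 held these letters in the 250 bases searched. Of the 7 genes, 5 had a promoter entry, and 6.02% of 32841 promoters of the same length held the word. All words searched were chosen after these sequences had been read. TGACGTCA, also the same on both strands, was found in Atg16l2 alone, against 1.55% of promoters. It lay 18 bases before the RefSeq start but 145 bases after the GENCODE start. Another word, GAAA followed by any 2 bases and GAAA again, searched on both strands, was in none of the 5 (2.98% of promoters). A match is a run of letters and was not tested as a binding site.

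Several properties of whole libraries touch the results. The LPS+siAtg5 libraries had a median gene of 4.53 to 4.8 FPKM, where all others had 2.62 to 3.25 FPKM. They also held 10752 to 10908 genes at or above 1 FPKM, where the others held 9112 to 9571. Unlike the other 19 columns, the 3 of LPS+dNC carry no unit in the file header. In LPS+dNC, 5.32% of tested genes had all of the group's libraries more than 0.5 (log2) above or below every library of the other groups, against 10.9% in LPS+siAtg5 and 0.352% to 0.623% in the other 3 groups. LPS replicate 3, LPS+dNC replicate 1 and LPS+CLA replicate 2 lay apart from their groups (SD of the log2 difference from their group mates 0.273 to 0.284, 0.351 to 0.388 and 0.267 to 0.273, against 0.158, 0.187 and 0.139 to 0.156 among the rest). The summed level of 12 astrocyte markers was 280 to 327 FPKM in LPS+siAtg5 and 4.9 to 19.3 FPKM elsewhere, and that of 10 microglial markers 2451 to 2579 FPKM in LPS+siAtg5, 1872 to 1936 in LPS+dNC and 2632 to 3220 in the other 3 groups. Among the astrocyte markers, Gfap averaged 126 and Aqp4 53.4 FPKM in LPS+siAtg5, while Ntsr2 and Gjb6 were at 0 in every LPS library. LPS+siAtg5 was also high in neuron markers (56.6 to 69.8 FPKM, elsewhere 2.75 to 18.1), in fibroblast, mural and endothelial markers (91.9 to 122, elsewhere 5.86 to 28.3) and in oligodendrocyte lineage markers (33.7 to 36.9, elsewhere 4.66 to 18.2). Border macrophage and monocyte markers summed to 16.0 to 56.8 FPKM in the 2 transfected groups and 104 to 287 in the other 3. Most of this sum was Pf4, with means of 38.5 in LPS+dNC, 20.7 in LPS+siAtg5 and 97.7 to 244 FPKM elsewhere. Mrc1 of the same list did not follow it, at 1.45 FPKM in LPS+dNC, 5.92 in LPS+siAtg5, 4.86 with CLA, 5.10 with Baf A1 and 12.4 in LPS. Of the neutrophil and lymphocyte list only S100a8 was in the table. The microglial marker Cx3cr1 was near 0 in LPS+dNC (mean 0.177 FPKM, against 4.44 to 13.9 in the other groups). The labels do not say whether replicates were separate cultures, so each p measures the spread between these libraries, which may be technical.

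Both compounds moved Atg5 and Atg3 apart: Atg5 mRNA rose and Atg3 mRNA fell with Baf A1 and with CLA. The siRNA lowered its target Atg5 by 41.4% against LPS+dNC and by 34.9% against LPS alone, and Atg3 and Atg16l1 were lower as well in both comparisons. Atg12 fell against LPS+dNC and was slightly higher than in LPS, and LPS+dNC held 2.01 times the Atg12 of LPS.

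The number of genes called (limma on log2(FPKM + 1), Benjamini-Hochberg adjusted p under 0.05 over all genes tested) was as follows. With Baf A1 against LPS, 2 of the 7 rose and 2 fell, while of all tested genes 57.8% were called, 32.7% higher and 25.1% lower. With CLA against LPS, 1 rose and 2 fell, where 63.1% of all genes were called, 40.4% higher and 22.6% lower. In LPS+siAtg5 against LPS+dNC all 7 were called, 2 higher and 5 lower, where 81.2% of all genes were called, 59.6% higher and 21.6% lower. In LPS+siAtg5 against LPS, 2 rose and 3 fell, where 76.8% of all genes were called, 61.2% higher and 15.6% lower. Groups did not overlap in 3 of the 7 genes with Baf A1 (52.7% of all genes), 3 with CLA (51.6%), 6 in LPS+siAtg5 against LPS+dNC (77%) and 4 in LPS+siAtg5 against LPS (70.7%). The siRNA target Atg5 itself is counted among the lower genes and those without overlap in both siRNA comparisons. No difference between these shares and their backgrounds was tested. Without the 3 libraries that lay apart, the genes called numbered 4, 3, 6 and 4 in the order of these comparisons, against 4, 3, 7 and 5 with all libraries.

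The size of the changes in the siRNA comparisons, and the share of calls that were higher, depend on the scale. As given below, rescaling turned the sign of Atg16l2 in both of these comparisons, and of Atg7 and Atg12 against LPS. The median of all genes rose by 0.34 (log2) in LPS+siAtg5 against LPS+dNC and by 0.31 against LPS. The median of the 7 genes, with the siRNA target Atg5 among them, was -0.35 and -0.09. After median-of-ratios scaling, which puts the libraries' typical gene at one level, the median of all genes was 0.06 and 0.01. The share of calls that were higher went from 73.4% to 54.1% against LPS+dNC, from 79.7% to 50.8% against LPS, from 64.1% to 49.4% for CLA against LPS and from 65.1% to 51.1% for CLA against Baf A1. For Baf A1 against LPS it went from 56.6% to 49.8%. Falls in LPS+siAtg5 against LPS+dNC grew with this scaling, from -0.26 to -0.58 for Atg3, from -0.35 to -0.65 for Atg16l1 and from -0.41 to -0.69 for Atg10. Against LPS they grew from -0.58 to -0.92 for Atg5, from -0.25 to -0.59 for Atg3 and from -0.24 to -0.57 for Atg16l1.

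**Figure D1:**
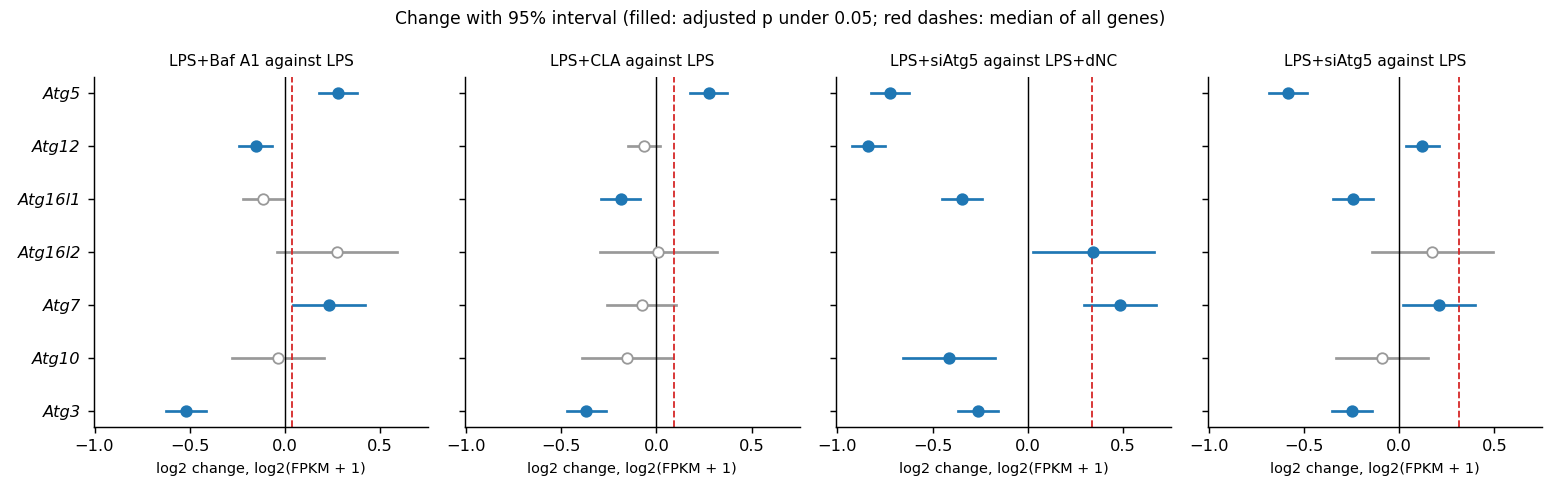
Log2 change on log2(FPKM + 1), with 95% interval, of each conjugation gene in 4 comparisons; filled points passed the adjusted p of 0.05 and the red dashes mark the median of all genes. Atg5 lies right of 0 with both compounds (0.28 and 0.27) and left of it with the siRNA (-0.73 and -0.58), and Atg3 lies left of 0 in all 4 panels.

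Atg5, the gene targeted by the siRNA, checks the labels. Its level was 13.27, 13.51, 12.86, 12.59 and 13.24 FPKM in LPS+siAtg5, against 24.26, 21.36 and 21.39 FPKM in LPS+dNC and 20.41, 20.06 and 19.83 FPKM in LPS. Every LPS+siAtg5 library lay below all 17 other libraries, with a gap of 0.52 (log2). Of all tested genes, 0.37% lay lower in this group by more than 0.5, and 10.6% higher. The fall was 0.73 on the log2 scale against LPS+dNC (SE 0.048, limma adjusted p = 4.05e-12), and an exact two-sided permutation test over samples gave p = 0.0179, the lowest value that 5 against 3 libraries can reach. Relative to the median of all genes, Atg5 changed by -1.06. Leaving out any single library kept the change between -0.76 and -0.67, and median-of-ratios scaling gave -1.03. By absolute size on the main scale, the Atg5 change exceeded that of 63.7% of tested genes, against LPS+dNC and against LPS alike. In these bulk libraries, fewer cells of a type and less RNA per cell cannot be told apart. The astrocyte markers named above were higher in 10 of 10 tested cases in this comparison. Of the 10 microglial markers, 8 were higher and 2 lower. Over all genes, 59.6% were called higher and 21.6% lower. The part of these markers in the result was not tested.

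With Baf A1, Atg5 stood at 25.57, 23.48, 24.82, 24.37 and 24.91 FPKM, and with CLA between 22.85 and 25.99 FPKM with a median of 24.4. All 11 libraries lay above the 3 LPS libraries. The rise over LPS was 0.28 (log2) with Baf A1 (SE 0.048, limma adjusted p = 3.29e-05) and 0.27 with CLA (SE 0.047, adjusted p = 2.22e-05). These 2 comparisons share the LPS libraries. The exact two-sided permutation p was 0.0179 for Baf A1 and 0.0119 for CLA, each the lowest its group sizes allow. Between the compounds Atg5 differed by -0.01 (CLA minus Baf A1, 95% interval -0.09 to 0.08, limma adjusted p = 0.92), which bounds the difference and does not show that the compounds act alike. Median-of-ratios scaling lowered the rise with CLA to 0.14 (adjusted p = 0.0294). From lowest to highest group mean, Atg5 ran from LPS+siAtg5 (13.09 ± 0.365 FPKM, SD, n = 5) over LPS (20.1 ± 0.292, n = 3), LPS+dNC (22.34 ± 1.67, n = 3) and LPS+CLA (24.54 ± 1.09, n = 6) to LPS+Baf A1 (24.63 ± 0.773, n = 5). The libraries of the last 3 groups overlapped. LPS+dNC against LPS was called for Atg5 (0.14, limma adjusted p = 0.0275) but not without LPS replicate 2 (adjusted p = 0.0589), LPS replicate 3 (0.0546) or LPS+dNC replicate 1 (0.195, with a change of 0.08).

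**Figure D2:**
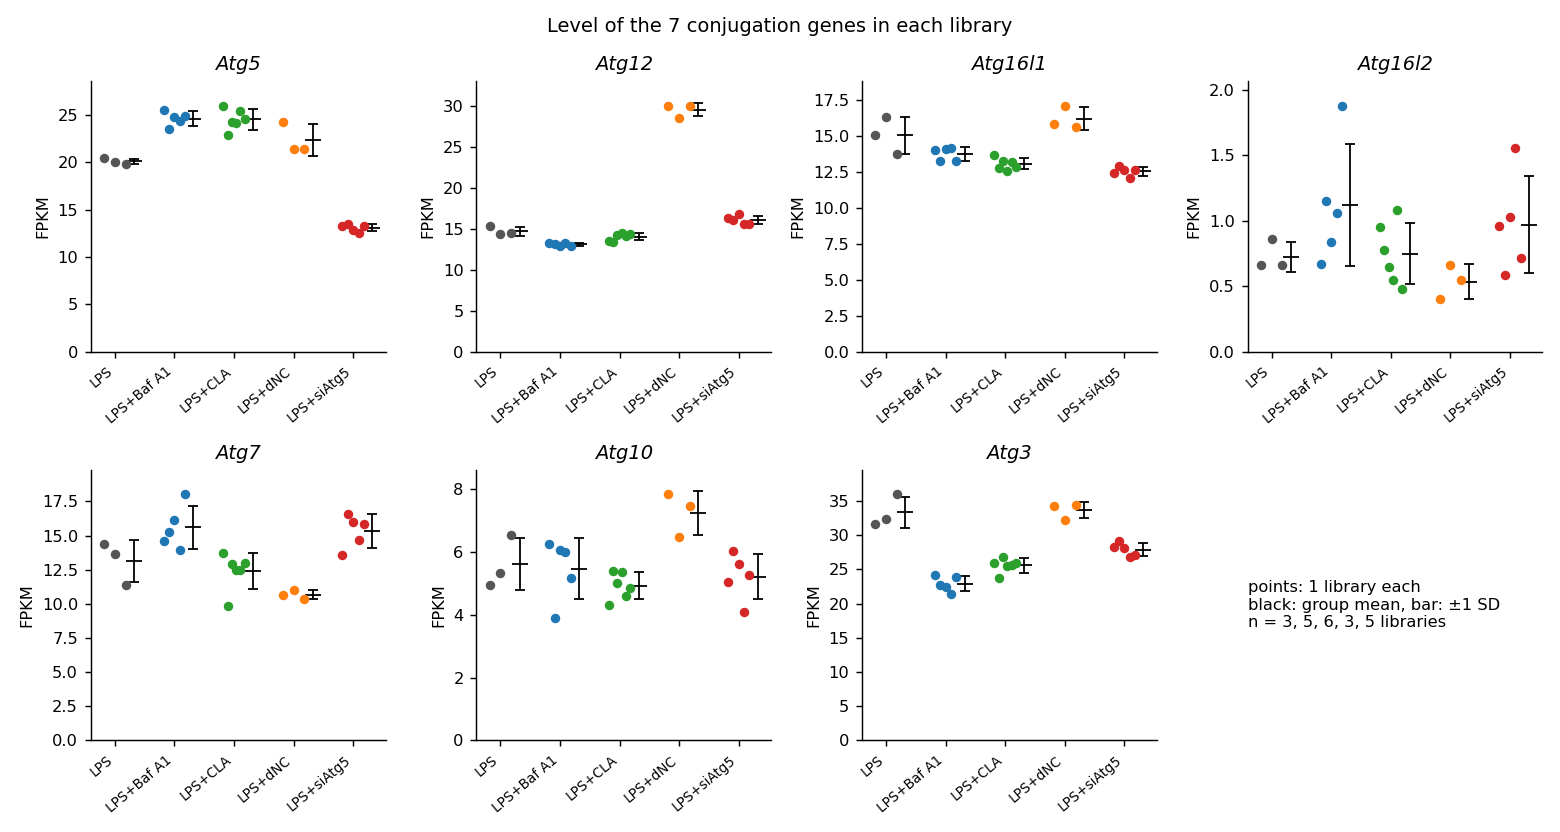
FPKM of each conjugation gene in every library by group; each point is 1 library, and the black mark and bar give the group mean and 1 SD. Atg5 is lowest in all 5 LPS+siAtg5 libraries (12.59 to 13.51), and Atg12 is highest in the 3 LPS+dNC libraries (28.65 to 30.1).

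Atg12 encodes the ubiquitin-like protein that is joined to ATG5. It stood at 30.1, 28.65 and 30.01 FPKM in LPS+dNC. The values were 15.38, 14.37 and 14.48 FPKM in LPS, 13.32, 13.15, 12.97, 13.29 and 12.95 FPKM in LPS+Baf A1, and 16.39, 16.08, 16.81, 15.61 and 15.66 FPKM in LPS+siAtg5. In LPS+CLA it ranged from 13.43 to 14.51 FPKM with a median of 14.2. The 3 LPS+dNC libraries lay above all 19 others with a gap of 0.74 (log2). The other groups lay within a few FPKM of each other.

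Against LPS, Atg12 in LPS+dNC was higher by 0.96 (log2, SE 0.047, limma adjusted p = 7.69e-14), and this call held under each of the 15 alternatives (0.93 to 1.00). LPS+dNC against LPS gave 3 genes called higher and 1 lower among the 7, where 57.2% of all genes were called, 29% higher and 28.1% lower. Groups did not overlap there in 3 of the 7, against 53.6% of all genes. Against LPS+dNC, Atg12 in LPS+siAtg5 fell by 0.84 (adjusted p = 2.76e-14), or -1.18 relative to the median of all genes. Against LPS, Atg12 in LPS+siAtg5 was 0.12 higher (limma adjusted p = 0.0128), a call that median-of-ratios scaling turned to -0.21 (adjusted p = 0.000381) and quantile normalization to -0.13 (adjusted p = 0.00966). Leaving out LPS replicate 2 ended the call (0.10, adjusted p = 0.0592). The 2 siRNA comparisons share the LPS+siAtg5 libraries. The LPS+dNC libraries also differed in other markers: S100a8, a calcium-binding protein of myeloid cells, was at 357 FPKM there against 7.67 to 27.9 elsewhere, and Csf1r, the receptor that microglia need to survive, at 153 FPKM against 443 to 1087. Their part in the Atg12 level was not tested.

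With Baf A1, Atg12 fell by 0.15 (log2, SE 0.042, limma adjusted p = 0.00306) and the groups did not overlap. With CLA its change against LPS was -0.06 (95% interval -0.15 to 0.02, adjusted p = 0.18), which became -0.20 (adjusted p = 0.000752) after median-of-ratios scaling and -0.18 (0.000636) after quantile normalization. Atg12 starts 296 bases from Ap3s1, a gene of a vesicle coat adaptor on the opposite strand. Ap3s1 averaged 97.8 FPKM in LPS+dNC and 64.7 to 88.5 FPKM in the other groups. Its libraries in LPS+dNC (89.0 to 111 FPKM) and LPS+CLA (86.7 to 90.1) overlapped. With Baf A1 (mean 78.2) and CLA (88.5) it stood above LPS (64.7), where the mean of Atg12 stood below LPS.

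Atg16l1, whose product brings ATG12-ATG5 to the membrane, was steadier. It stood at 15.04, 16.35 and 13.74 FPKM in LPS, at 15.86, 17.11 and 15.66 FPKM in LPS+dNC and at 12.42, 12.93, 12.62, 12.11 and 12.61 FPKM in LPS+siAtg5. With Baf A1 it was at 14.03, 13.26, 14.13, 14.19 and 13.24 FPKM, and with CLA between 12.6 and 13.67 FPKM with a median of 13.0. All LPS+siAtg5 and all LPS+CLA libraries lay below the LPS libraries, while the Baf A1 range overlapped them.

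Against LPS, Atg16l1 fell by 0.19 with CLA (SE 0.049, limma adjusted p = 0.00206) and by 0.24 with the siRNA (SE 0.051, adjusted p = 0.000176). Against LPS+dNC the siRNA group was lower by 0.35 (SE 0.051, adjusted p = 1.68e-06). With Baf A1 the change was -0.12 (95% interval -0.22 to -0.01, adjusted p = 0.0535). It passed the threshold without LPS replicate 3 (-0.18, adjusted p = 0.00434) and with median-of-ratios scaling (-0.17, 0.00287), quantile normalization (-0.12, 0.0233), a filter of 5 FPKM (-0.12, 0.0456) and array weights (-0.18, 0.00085), and without the 3 libraries that lay apart (-0.18, 0.00361). LPS+dNC differed from LPS by 0.10 (adjusted p = 0.125), and by 0.16 (0.024) without LPS replicate 2. CLA differed from Baf A1 by -0.07 (adjusted p = 0.161), and by -0.15 (0.00256) after median-of-ratios scaling.

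Atg16l2 was the lowest of the 7 in every library, between 0.4 and 1.88 FPKM, and reached 1 FPKM in 6 of 22. It stood at 0.4, 0.66 and 0.55 FPKM in LPS+dNC and at 0.96, 0.59, 1.03, 1.56 and 0.72 FPKM in LPS+siAtg5, and these ranges overlapped. Atg16l1 exceeded it by 13.9 to 31.3 times in the group means of the ratio within a library. In LPS+siAtg5 against LPS+dNC it was called higher by 0.34 (log2, limma adjusted p = 0.0429), which is the median change of all genes. That call was lost in 10 of 15 alternatives. Among them were the fits without LPS+dNC replicate 1 (adjusted p = 0.145) or 3 (0.0775) and without LPS+siAtg5 replicate 1 (0.0613), 3 (0.0699) or 4 (0.128), and quantile normalization turned it to -0.41 (adjusted p = 0.0085). In no other comparison was Atg16l2 called, with adjusted p from 0.0833 to 0.96. CLA against Baf A1 (-0.26, adjusted p = 0.0833) passed when LPS+Baf A1 replicate 1 (-0.34, 0.0307) or LPS+CLA replicate 5 (-0.32, 0.0465) was left out, and with median-of-ratios scaling (-0.31, 0.044). LPS+siAtg5 against LPS (0.17, adjusted p = 0.303) turned to -0.61 (0.000331) with quantile normalization.

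Atg7, the E1-like enzyme upstream of both conjugations, was lowest in LPS+dNC and highest with Baf A1 and the siRNA. It stood at 10.65, 11 and 10.36 FPKM in LPS+dNC and at 13.56, 16.58, 16.03, 14.66 and 15.88 FPKM in LPS+siAtg5. In LPS it was at 14.39, 13.63 and 11.41 FPKM, with Baf A1 at 14.6, 15.29, 16.12, 13.95 and 18.02 FPKM, and with CLA between 9.84 and 13.69 FPKM with a median of 12.7. LPS replicate 3 and LPS+CLA replicate 2, which lay apart from their groups in general, gave the lowest Atg7 of their groups.

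Against LPS+dNC, Atg7 in LPS+siAtg5 was higher by 0.48 (log2, SE 0.091, limma adjusted p = 4.69e-05) with no overlap. Relative to the median of all genes this was 0.14, and after median-of-ratios scaling 0.18 (adjusted p = 0.0495). Between the compounds, Atg7 was lower with CLA than with Baf A1 by 0.31 (SE 0.076, adjusted p = 0.00145), with no overlap, and this call held in each of the 21 alternatives (-0.40 to -0.25).

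The rise of Atg7 with Baf A1 over LPS, 0.23 (log2, SE 0.091, limma adjusted p = 0.034), was less firm. Without LPS replicate 3 it was 0.14 (adjusted p = 0.232), and the call also ended on leaving out LPS+Baf A1 replicate 3 (adjusted p = 0.0615) or 5 (0.095), with median-of-ratios scaling (0.0723) and with array weights (0.0705). Over LPS, Atg7 in LPS+siAtg5 was 0.21 higher (adjusted p = 0.0402). Median-of-ratios scaling turned this to -0.12 (0.199) and quantile normalization to -0.05 (0.591). Leaving out LPS replicate 3 ended the call (0.12, adjusted p = 0.271), as did leaving out LPS+siAtg5 replicate 2 (0.0874), 3 (0.0741) or 5 (0.0706). In LPS+dNC Atg7 was 0.27 lower than in LPS (adjusted p = 0.0269), which was lost without LPS replicate 1 (0.13) or 2 (0.0834) and without LPS+dNC replicate 1 (0.0514) or 3 (0.0717). With CLA against LPS it changed by -0.08 (95% interval -0.26 to 0.11, adjusted p = 0.456), and median-of-ratios scaling gave -0.21 (0.0257).

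Atg10, the E2-like enzyme of the ATG12 branch, ranked sixth of the 7 in all 22 libraries. It stood at 7.83, 6.47 and 7.45 FPKM in LPS+dNC and at 5.04, 6.03, 5.6, 4.1 and 5.27 FPKM in LPS+siAtg5. In LPS, LPS+Baf A1 and LPS+CLA it ranged from 3.9 to 6.54 FPKM, and these 3 groups overlapped. LPS+siAtg5 was lower than LPS+dNC by 0.41 (log2, SE 0.12, limma adjusted p = 0.00255) with no overlap. Against LPS it changed by -0.09 (95% interval -0.33 to 0.15, adjusted p = 0.483), and here median-of-ratios scaling gave -0.39 (0.009) and quantile normalization -0.59 (0.000335). The higher level in LPS+dNC than in LPS (0.32, adjusted p = 0.0386) was lost in 9 of 15 alternatives, among them those without LPS replicate 1 (0.155) or 2 (0.102) and without LPS+dNC replicate 1 (0.118) or 3 (0.0902). Neither compound changed Atg10 past the threshold (-0.04 with Baf A1, adjusted p = 0.806, and -0.15 with CLA, 0.241). CLA against Baf A1 (-0.12, adjusted p = 0.321) passed only when LPS+Baf A1 replicate 2 was left out (-0.21, 0.0445).

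Atg3, the E2-like enzyme of the LC3 branch, had the highest level of the 7 in 16 of 22 libraries and was second in the others. It stood at 31.64, 32.31 and 35.94 FPKM in LPS, and at 34.31, 32.26 and 34.34 FPKM in LPS+dNC. With Baf A1 it was at 24.13, 22.73, 22.37, 21.35 and 23.87 FPKM, with the siRNA at 28.28, 29.19, 28.13, 26.72 and 27.03 FPKM, and with CLA between 23.66 and 26.82 FPKM with a median of 25.7. Every library of the 3 treated groups lay below every LPS and LPS+dNC library. The order from high to low was LPS+dNC, LPS, LPS+siAtg5, LPS+CLA and LPS+Baf A1, in which only LPS and LPS+siAtg5 are neighbours without overlap.

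Atg3 fell by 0.52 with Baf A1 (log2, SE 0.051, limma adjusted p = 1.24e-08), by 0.37 with CLA (SE 0.049, adjusted p = 9.26e-07), by 0.26 with the siRNA against LPS+dNC (adjusted p = 6.46e-05) and by 0.25 with the siRNA against LPS (adjusted p = 0.000151). Each of these calls held in all of its 17 to 19 alternatives. LPS+dNC and LPS differed by 0.02 (95% interval -0.10 to 0.13, adjusted p = 0.832), a sign that scaling turns. CLA left 0.15 more Atg3 than Baf A1 did (adjusted p = 0.00403), although the libraries overlapped and median-of-ratios scaling (0.07, adjusted p = 0.218) and quantile normalization (0.08, 0.107) ended the call. In CLA against Baf A1, 2 of the 7 genes were called higher and 1 lower, where 54.3% of all genes were called, 35.4% higher and 19% lower. Groups did not overlap in 2 of the 7, against 39.5% of all genes. The third of these, Atg12, was 0.09 higher with CLA (adjusted p = 0.0302), and its call was lost under both scalings and without LPS+Baf A1 replicate 3 or 5 or LPS+CLA replicate 3, 4 or 6 (adjusted p 0.0575 to 0.0651).

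Ratios of 2 genes within a library do not depend on the library's scale. Atg5 over Atg3 was 0.606 (0.552 to 0.645) in LPS, 1.08 (1.03 to 1.14) with Baf A1, 0.961 (0.904 to 1.00) with CLA, 0.664 (0.623 to 0.707) in LPS+dNC and 0.47 (0.457 to 0.49) with the siRNA. The compound groups thus lay above, and the siRNA group below, both reference groups without overlap. Atg5 over Atg12 was 1.36 (1.33 to 1.40) in LPS, 1.88 (1.79 to 1.92) with Baf A1 and 1.75 (1.67 to 1.91) with CLA. It was 0.755 (0.713 to 0.806) in LPS+dNC and 0.813 (0.765 to 0.845) with the siRNA, and these ranges overlap. Atg12 over Atg16l1 was 1.83 in LPS+dNC, 1.29 with the siRNA and 0.955 to 1.08 in the other 3 groups. A ratio shows unequal change of its 2 genes and not which of them changed.

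**Figure D3:**
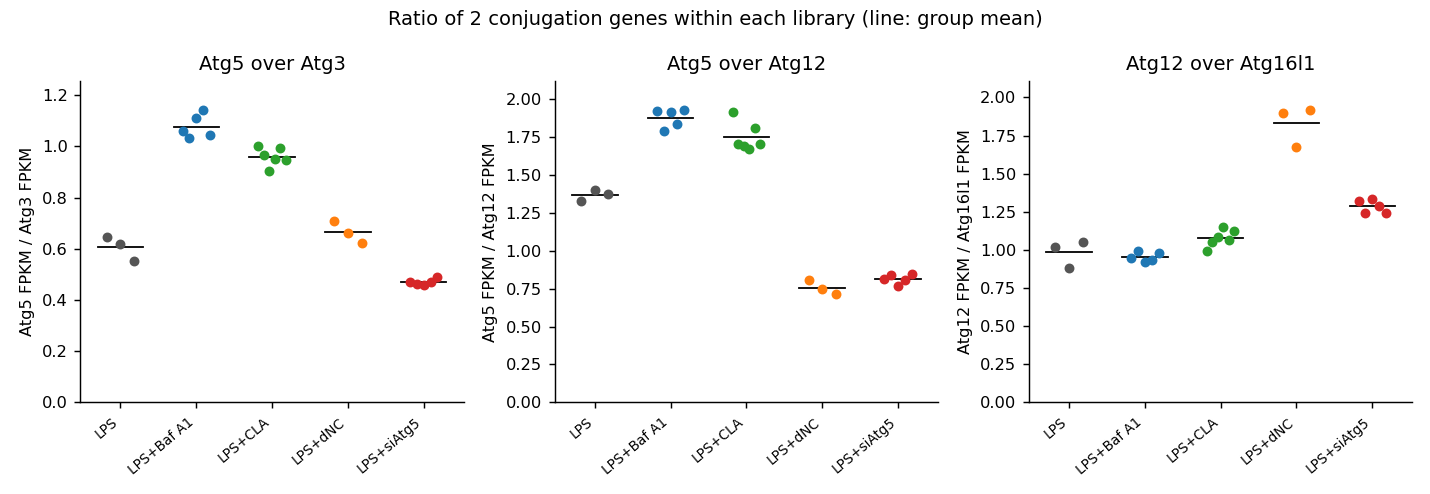
Ratio of FPKM of 2 conjugation genes within each library, by group; points are libraries and lines group means. Atg5 over Atg3 is highest with Baf A1 (1.03 to 1.14) and lowest with the siRNA (0.457 to 0.49), and Atg12 over Atg16l1 is highest in LPS+dNC (mean 1.83).

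The siRNA effect (LPS+siAtg5 minus LPS+dNC) and the Baf A1 effect (LPS+Baf A1 minus LPS) share no library, and their difference was tested in the same limma model. It was called in 5 of the 7 genes, 1 higher and 4 lower, where 72.7% of all genes were called, 52.3% higher and 20.4% lower. For Atg5 it was -1.01 (log2, adjusted p = 1.73e-11), for Atg12 -0.68 (9.38e-10) and for Atg16l1 -0.23 (0.00686), and these 3 held in all 25 alternatives. All of these alternatives kept LPS+dNC as the reference of the siRNA. Atg12 stood 0.96 above LPS in LPS+dNC and 0.12 above LPS in LPS+siAtg5. For Atg3 the difference between the effects was 0.26 (adjusted p = 0.00296): Atg3 fell less with the siRNA. Median-of-ratios scaling reduced that to 0.00 (0.973) and quantile normalization to 0.13 (0.117). The median of all genes in this contrast was 0.30. Atg10 (-0.38, adjusted p = 0.0448) lost its call in 14 of 25 alternatives, among them the fits without LPS replicate 1 or 2, LPS+Baf A1 replicate 1, 3 or 4, LPS+dNC replicate 1 or 3, or LPS+siAtg5 replicate 1, 4 or 5 (-0.38 to -0.31, adjusted p 0.0529 to 0.127). Atg7 (0.25, adjusted p = 0.0847) and Atg16l2 (0.07, 0.78) were not called. Atg7 passed when LPS replicate 3 (0.34, adjusted p = 0.022), LPS+Baf A1 replicate 5 (0.0360) or LPS+siAtg5 replicate 1 (0.0476) was left out.

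The genes that encode the substrates and neighbours of this step were read from 5 lists with 54 genes, of which 53 were tested. Over those 53, Baf A1 raised 19 and lowered 9, CLA raised 17 and lowered 14, and the siRNA group had 29 higher and 10 lower than LPS+dNC. The median change was 0.07, 0.00 and 0.26 (log2) in this order, against 0.04, 0.09 and 0.34 over all genes. Over all genes the shares called higher and lower were 32.7% and 25.1% with Baf A1, 40.4% and 22.6% with CLA, and 59.6% and 21.6% in the siRNA comparison. The counts of each list below stand beside these shares, and no difference from them was tested. Values of these 5 lists come from the main fit only and were not recomputed with scaling or with libraries left out. Over all genes, median-of-ratios scaling took the share of calls that were higher from 73.4% to 54.1% in the siRNA comparison.

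The LC3 and GABARAP proteins, which the enzymes above attach to lipid, and the ATG4 proteases that trim and release them, made up a list of 9. With Baf A1, 6 were higher and none lower (32.7% and 25.1% of all genes), among them Gabarapl2 (29.97 to 37.2 FPKM, 0.31, limma adjusted p = 0.000335) and Atg4a (0.28, adjusted p = 0.000384). With CLA, 4 were higher and 1 lower. Gabarapl1, a GABARAP paralogue, went from 23.5 ± 0.273 (SD, n = 3) to 46.0 ± 7.51 FPKM (n = 6), a change of 0.92 (adjusted p = 3.35e-06). In LPS+siAtg5 against LPS+dNC, 5 were higher and 3 lower. Map1lc3b, the main LC3 gene, was higher by 0.37 (adjusted p = 6.63e-07), near the median of all genes, and Gabarap lower by 0.42 (adjusted p = 2.49e-06), at 291.4 FPKM against 390.3 in LPS+dNC and 304.03 in LPS. The protease gene Atg4d stood at 12.1 ± 1.25 FPKM in LPS+dNC and 3.63 ± 0.404 FPKM in LPS+siAtg5 (-1.50, adjusted p = 3.12e-14), but at 4.47 ± 0.185 FPKM in LPS, so it shared with Atg12 a high level in LPS+dNC.

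Among the genes that start the autophagosome (ULK1 complex and ATG9 lipid transfer, 8 tested), Baf A1 raised 4 and lowered 1, CLA raised 4 and lowered 3, and the siRNA comparison had 3 higher and 2 lower. Rb1cc1, the scaffold FIP200 of the ULK1 complex, fell by 0.93 with Baf A1 (limma adjusted p = 4.12e-08) and by 0.68 with CLA (adjusted p = 1.66e-06). It was as low in LPS+dNC (6.99 FPKM) as with Baf A1 (6.88), against 13.9 in LPS (LPS+dNC against LPS -0.90, adjusted p = 3.19e-07). LPS+siAtg5 lay between, at -0.26 against LPS (0.0232) and 0.65 against LPS+dNC (3.02e-06). Atg9a, the lipid scramblase of the seed vesicles, rose by 0.50 (adjusted p = 1.79e-06) and 0.37 (4.76e-05) with the compounds and was 0.59 lower in LPS+siAtg5 than in LPS+dNC (5.8e-08). Its level was 15.2 FPKM in LPS+siAtg5, 14.8 in LPS and 23.3 in LPS+dNC, which was 0.61 above LPS (4.43e-07). Ulk2, a kinase of the complex, was 0.81 higher in LPS+siAtg5 than in LPS+dNC (adjusted p = 2.77e-12).

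In the list of phosphatidylinositol 3-kinase subunits, WIPI proteins and nucleation factors (15 tested), 4 were higher and 3 lower with each compound, and 9 higher and 2 lower in the siRNA comparison. Wipi1, which reads the lipid made by this kinase, rose by 0.79 with Baf A1 (limma adjusted p = 1.02e-07), 0.38 with CLA (adjusted p = 0.000596) and 0.61 in LPS+siAtg5 against LPS+dNC (1.53e-06). WIPI2 is the protein that recruits ATG16L1. Its gene Wipi2 was 0.35 higher with Baf A1 (adjusted p = 0.000101). Uvrag, a subunit of the kinase complex, fell in all 3 comparisons, by 0.40 (adjusted p = 1.14e-07), 0.47 (3.89e-09) and 0.59 (5.81e-11).

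The fusion list (9 tested) had 1 higher and 2 lower with Baf A1, 2 higher and 3 lower with CLA, and 6 higher and 1 lower in the siRNA comparison. That lower gene was Tecpr1, whose product binds ATG12-ATG5 (-0.25, limma adjusted p = 0.000493), and it was 0.23 lower with CLA (adjusted p = 0.0012). The cargo receptors (12 tested) had 4 higher and 3 lower with Baf A1, 3 and 4 with CLA, and 6 and 2 in the siRNA comparison. Bnip3, a mitophagy receptor, rose by 1.31 with Baf A1 (adjusted p = 5.64e-09) and 1.58 with CLA (8.94e-11), and was 1.41 lower in LPS+siAtg5 than in LPS+dNC (3.84e-10). Its level was 20.2 FPKM in LPS+siAtg5 and 20.1 in LPS, against 56.9 ± 17.2 (SD, n = 3) in LPS+dNC, which was 1.42 above LPS (limma adjusted p = 6.85e-09). Tax1bp1, a receptor for ubiquitinated cargo, fell by 0.55 with Baf A1 (2.5e-09) and 0.30 with CLA (1.08e-05). In LPS+siAtg5 it was 0.84 lower than in LPS+dNC (4.08e-13) but 0.11 lower than in LPS (0.0415), and LPS+dNC stood 0.73 above LPS (102.7 against 61.5 FPKM). Sqstm1, which encodes the receptor p62, fell by 0.95 with CLA (adjusted p = 4.36e-09). It was highest in LPS (548.6 FPKM), and the other groups were called lower as well. The changes against LPS were -0.29 with Baf A1 (adjusted p = 0.00925), -0.67 in LPS+siAtg5 (8.68e-07) and -0.72 in LPS+dNC (3.2e-06). LPS+siAtg5 against LPS+dNC was 0.05 (0.646). As stated above, the LPS+dNC libraries and the other-cell markers of LPS+siAtg5 stood apart, and their part in these lists was not tested.

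**Figure D4:**
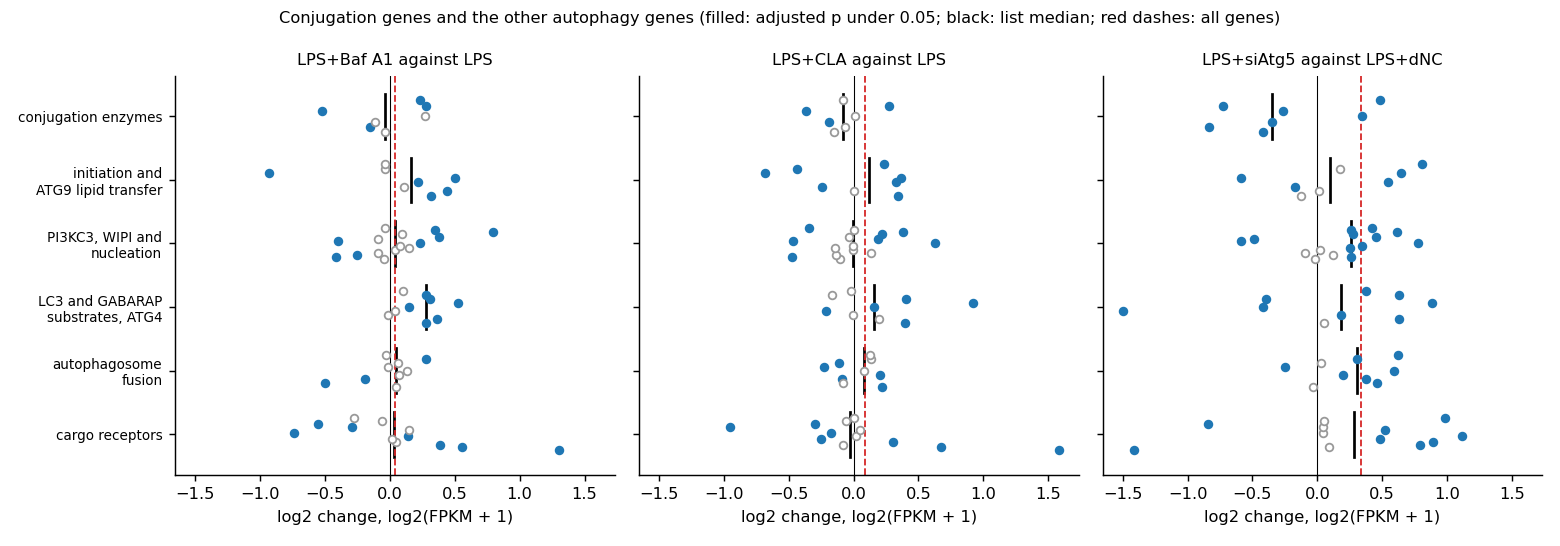
Log2 change on log2(FPKM + 1) of the conjugation genes and of 5 other autophagy lists in 3 comparisons; each point is 1 gene, filled where the adjusted p was under 0.05, the black line is the list median and the red dashes the median of all genes. In the right panel the conjugation genes, with the siRNA target Atg5 among them, have a median of -0.35 where all genes have 0.34.

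The genes whose centred log2 levels ran closest to Atg5 over the 22 libraries were Sptlc1, Pgs1, Vps37c, Dhrs3 and Aoah, of 10898 genes compared, with a root mean square difference of 0.138 to 0.171 against the 0.347 that Atg5 itself varied. Each was lowest in LPS+siAtg5, Sptlc1 for example at 19.23 FPKM against 25.72 in LPS and 34.02 with Baf A1. For Atg3 it was Pcna (0.078), which stood at 60.7 FPKM with Baf A1, 70.6 with CLA, 78.1 with the siRNA, 84.4 in LPS and 92.2 in LPS+dNC, the same order as Atg3. Further nearest genes were St6galnac4 for Atg7 (0.113), Hpcal1 for Atg10 (0.123), Ikzf1 for Atg16l1 (0.064) and Ppp1r16a for Atg16l2 (0.166). All of these genes were picked for their likeness, so a low level in LPS+siAtg5 or a shared order of groups follows from the choice. The likenesses are descriptions over libraries that share groups and scale.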

How the data were processed

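RNA of primary microglia was sequenced in 22 libraries. The authors deposited FPKM per gene symbol, per the file headers for 19 columns; the 3 LPS+dNC headers lack a unit, and these columns were taken as FPKM as part of the same table, although their sums (556496 to 575125) are the 3 highest (469750 to 525127 in the other 19). The submitters' processing notes name CASAVA 1.7, fastp 0.18.0, Bowtie2 2.2.8, HISAT2 and StringTie 1.3.1; their order, the genome build and the gene annotation were not found in the labels. Read counts were not used here, and without the depth no interval for counting error is given. Libraries were grouped by title.

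Values were analysed as log2(FPKM + 1), which understates changes of low genes, with limma 3.58.1 in R 4.3.3: 1 model of 5 group means, moderated variances (eBayes, trend and robust set), 17 residual degrees of freedom, Benjamini-Hochberg over 11070 genes. The design allowed for counts or normalized values, and the second branch was used. The script was tested on simulated data. Alternatives were a pseudocount of 0.1, no filter, a filter of 5 FPKM, median-of-ratios scaling, quantile normalization, array weights, a replicate block, only the groups compared, and leaving out each library; fits without the 3 libraries that lay apart and without LPS+dNC were added after seeing the data.

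Text names all 7 genes; of each pathway list up to 2 genes per direction with the smallest adjusted p; the genes nearest to each member, leaving out predicted-gene names (that of Atg12 is not reported here); and of marker lists the highest and those at 0. Wipi2 for Baf A1, Csf1r, Cx3cr1, Ap3s1 and the values of Atg4d in LPS were also chosen after values were seen. The 7 genes and the lists were chosen with earlier results of these data known.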

Additional observations from a re-analysis of the deposited data

Results flagged for a closer look

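Among 21 tests of whether the highest or lowest library of a group of 5 or 6 stood apart in one of the 7 genes, 1 passed, and chance passes about 1 in 20. It was Atg7 in LPS+CLA replicate 2, at 9.84 FPKM where the other 5 libraries of its group lay between 12.5 and 13.69 FPKM.

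The siRNA effect minus the Baf A1 effect differed from 0 by its own limma contrast in 5 genes. The difference was -1.01 (log2) for Atg5, -0.68 for Atg12, -0.23 for Atg16l1, -0.38 for Atg10 and 0.26 for Atg3. Those of Atg10 and Atg3 lost their call under some alternatives, with the values given above, and 72.7% of all genes were called in this contrast. Atg12 stood 0.96 (log2) above LPS in LPS+dNC, the reference of the siRNA effect, and 0.12 above LPS in LPS+siAtg5.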

How the results depend on the processing

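Of 920 recomputed values of single genes, 788 kept their direction and call, 72 lost the call, 26 gained one and 34 changed sign. Of 143 recomputed counts and levels, 135 stayed within 1.5 times the reported value or kept their call. In CLA against LPS the 3 genes called became 5 with median-of-ratios scaling and 5 with quantile normalization. In LPS+dNC against LPS the 4 became 2 with median-of-ratios scaling and 1 with only the groups compared. Leaving out each library gave 3 to 4 genes (Baf A1 against LPS), 3 to 3 (CLA), 6 to 7 (LPS+siAtg5 against LPS+dNC), 4 to 5 (LPS+siAtg5 against LPS), 1 to 4 (LPS+dNC against LPS), 2 to 4 (CLA against Baf A1) and 4 to 6 (siRNA minus Baf A1 effect), with an Atg5 change of -0.76 to -0.67 for the siRNA. The 1 came without LPS+dNC replicate 1, and 2 were called without LPS replicate 1 or 2 or LPS+dNC replicate 3.

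Changes of sign (log2) were these. Median-of-ratios scaling: Atg16l2 -0.051 (CLA against LPS) and -0.047 (siRNA minus Baf A1 effect), Atg7 -0.12 and Atg12 -0.21 (LPS+siAtg5 against LPS), Atg3 -0.014 (LPS+dNC against LPS). Quantile normalization: Atg16l2 -0.41 (LPS+siAtg5 against LPS+dNC), -0.61 (LPS+siAtg5 against LPS) and -0.65 (siRNA minus Baf A1 effect), Atg7 -0.0499 and Atg12 -0.13 (LPS+siAtg5 against LPS), Atg3 -0.011 (LPS+dNC against LPS), Atg12 -0.012 (CLA against Baf A1), Atg7 -0.014 (siRNA minus Baf A1 effect). Array weights: Atg10 0.051 (Baf A1 against LPS), Atg16l2 -0.047 (CLA against LPS), Atg5 0.0096 (CLA against Baf A1). Without the 3 libraries that lay apart: Atg10 0.061 (Baf A1 against LPS) and 0.0071 (LPS+siAtg5 against LPS), Atg16l2 -0.025 (CLA against LPS), Atg5 0.014 (CLA against Baf A1). Leaving out 1 library: Atg10 -0.11 to 0.061 (Baf A1 against LPS) and -0.16 to 0.0071 (LPS+siAtg5 against LPS), Atg16l2 -0.043 to 0.064 (CLA against LPS) and -0.028 to 0.19 (siRNA minus Baf A1 effect), Atg3 -0.019 to 0.0704 (LPS+dNC against LPS), Atg5 -0.022 to 0.014 (CLA against Baf A1). The cause was not tested. The filter of 5 FPKM gave no value for Atg16l2.

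The replicate numbers in the labels showed no sign of pairing the samples. Of 20 same-numbered pairs, 1 had a correlation of deviations over 0.1 (range -0.13 to 0.16), as had 7 of 82 other pairs. This check cannot exclude a pairing, because deviations from the means of small groups are tied to each other. With the replicate block the genes called were 3 (Baf A1 against LPS), 3 (CLA), 6 (LPS+siAtg5 against LPS+dNC), 4 (LPS+siAtg5 against LPS), 3 (LPS+dNC against LPS), 2 (CLA against Baf A1) and 4 (siRNA minus Baf A1 effect), and Atg16l2 in CLA against LPS was -0.0197. Depth is unknown in these files, so the precision of low values such as those of Atg16l2 cannot be given.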
